A study of Rattus norvegicus with 4 samples.

Results

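The genes described here mark 2 tissues that lie against the hypothalamus, the choroid plexus of the third ventricle and the pituitary gland. Ttr, Sostdc1, Folr1 and Clic6 stand for choroid plexus, and Prl, Lhb, Cga, Fshb, Pitx1 and Dlk1 for pituitary. They were taken from the normalized table by their symbol, which gave 10 probes, 1 for each gene, of 22523 probes in all. They carry 10 of the 21467 gene symbols on the array. The members were selected on the tissue they mark and with earlier signals of these same 4 samples known, among them those of Ttr and Prl, so all values below are descriptions and carry no test. The study measured total RNA of hypothalami dissected from male Wistar rats at an age of 4 months. It used Illumina bead arrays, whose probes are short DNA molecules fixed to beads. It had 4 groups with 1 sample in each: FR30 offspring on a high-fat (HF) diet, FR30 offspring on standard diet, control offspring on HF diet and control offspring on standard diet. FR30 offspring were undernourished before birth, and control offspring were not. The labels do not say whether a sample is 1 animal or a pool, and no difference below has a replicate check.

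The choroid plexus is a folded epithelium that hangs into the brain ventricles and secretes cerebrospinal fluid. Its cells make transthyretin, the product of Ttr, in very large amounts, and within the brain this gene is known mainly from that epithelium. The anterior pituitary lies under the hypothalamus at the end of the pituitary stalk. Its lactotroph cells make prolactin from Prl. Its gonadotroph cells make luteinizing and follicle-stimulating hormone, each built from the common alpha subunit encoded by Cga and a beta subunit of its own. The pars tuberalis, a thin sheet of pituitary cells around the stalk and the median eminence, is known for the thyrotropin beta subunit Tshb.

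Promoter sequences are shown for Ttr and Prl, the members with the widest range over the 4 samples, and for Lhb, which stood in the same order of samples as Prl. RefSeq windows of 300 bases on the GRCr8 build, 250 before to 50 after the annotated start, were at hand for 5 of the 10 members. Capitals mark the letters TATNCAT (core of a site for the pituitary factor POU1F1), TAATCN (bicoid-type site, the kind bound by PITX and OTX factors), TGNCCTTG (site of the gonadotroph factor NR5A1) and TATAAA (the core of a TATA box), searched on both strands.
Ttr (chr18:12218508-12218807, + strand): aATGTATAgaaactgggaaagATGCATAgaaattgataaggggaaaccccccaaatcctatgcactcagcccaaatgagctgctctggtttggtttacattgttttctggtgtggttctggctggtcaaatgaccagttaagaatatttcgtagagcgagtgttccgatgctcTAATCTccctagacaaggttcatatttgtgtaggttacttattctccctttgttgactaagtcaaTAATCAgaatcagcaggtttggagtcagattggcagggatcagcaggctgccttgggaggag
Prl (chr17:38298168-38298467, - strand): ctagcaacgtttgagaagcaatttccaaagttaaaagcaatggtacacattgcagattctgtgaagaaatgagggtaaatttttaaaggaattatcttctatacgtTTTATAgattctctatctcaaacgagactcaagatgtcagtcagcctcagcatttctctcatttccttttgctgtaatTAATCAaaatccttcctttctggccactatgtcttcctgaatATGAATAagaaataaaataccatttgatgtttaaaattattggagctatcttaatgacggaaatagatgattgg
Lhb (chr1:105037207-105037506, + strand): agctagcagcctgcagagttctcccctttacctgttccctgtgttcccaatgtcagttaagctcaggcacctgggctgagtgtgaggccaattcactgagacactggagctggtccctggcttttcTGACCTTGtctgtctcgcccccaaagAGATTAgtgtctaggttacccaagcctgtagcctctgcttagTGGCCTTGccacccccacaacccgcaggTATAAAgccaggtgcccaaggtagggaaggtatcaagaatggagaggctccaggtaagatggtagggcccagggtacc
No capitalised match overlaps another. Ttr held 2 POU1F1 and 2 bicoid-type matches, Prl held 1 of each, and Lhb held 2 NR5A1 matches and 1 bicoid-type match. Lhb held 1 TATA match, on the + strand at -28 from the annotated start. Prl held 1 as well, but on the - strand at -144. Of 33469 promoter windows of this length, 9.88% held the POU1F1 letters, 22.9% the bicoid-type letters, 6.55% the NR5A1 letters and 14.2% the TATA letters. A match is a run of letters and not a measured site.

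Signals are the authors' normalized bead intensities, with the SD the authors deposited beside each signal. The sources used here do not give what this SD was taken over. A gene counts as detected at a detection p under 0.01, and the dimmest detected probe of each sample had a signal of 188 in FR30 HF, 191 in FR30 standard, 183 in control HF and 188 in control standard. Between 47.0% and 49.4% of all probes were detected in a sample. Of the 10 members, 6 were detected in FR30 HF, 5 in FR30 standard, 3 in control HF and 7 in control standard. Pitx1 and Dlk1 were detected in all 4 samples, Ttr, Clic6 and Prl in 3, Sostdc1 and Lhb in 2, and Folr1, Cga and Fshb in none. In RNA of whole tissue, fewer cells of a type and less RNA per cell cannot be told apart.

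Ttr had the widest range of the members. Its signal was 1251 ± 49.1 (deposited SD) in FR30 HF, 209 ± 8.19 in FR30 standard, 183 ± 4.59 in control HF and 523 ± 14.9 in control standard. All 4 signals were more than 2 deposited SD apart on each side, and the highest was 6.84 times the lowest. Among the probes of its own sample, Ttr stood at percentile 86.4 in FR30 HF and at percentile 50.6 in control HF. It was just outside detection in control HF, where its detection p was 0.0109, and just inside it in FR30 standard.

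Sostdc1, a secreted antagonist of BMP and Wnt signals that marks the choroid plexus epithelium, stood in the same order of samples as Ttr. Its signal was 261 ± 8.43 in FR30 HF, 177 ± 9.94 in FR30 standard, 174 ± 4.03 in control HF and 191 ± 12.8 in control standard. FR30 HF was more than 2 SD above the next sample, while the other 3 samples were not apart from each other in turn. Control standard was just inside detection, with a p of 0.00727.

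Clic6, an intracellular chloride channel protein, and Folr1, the folate receptor that carries folate through this epithelium, varied little. Clic6 had 202 ± 10.4 in FR30 HF, 187 ± 10.1 in FR30 standard, 194 ± 4.58 in control HF and 194 ± 10.1 in control standard. No neighbouring signals in its order were more than 2 SD apart. Folr1 lay between 156 and 177 and below detection in every sample. Its signals were not more than 2 SD apart between neighbours, so they give no order of samples.

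**Figure D1:**
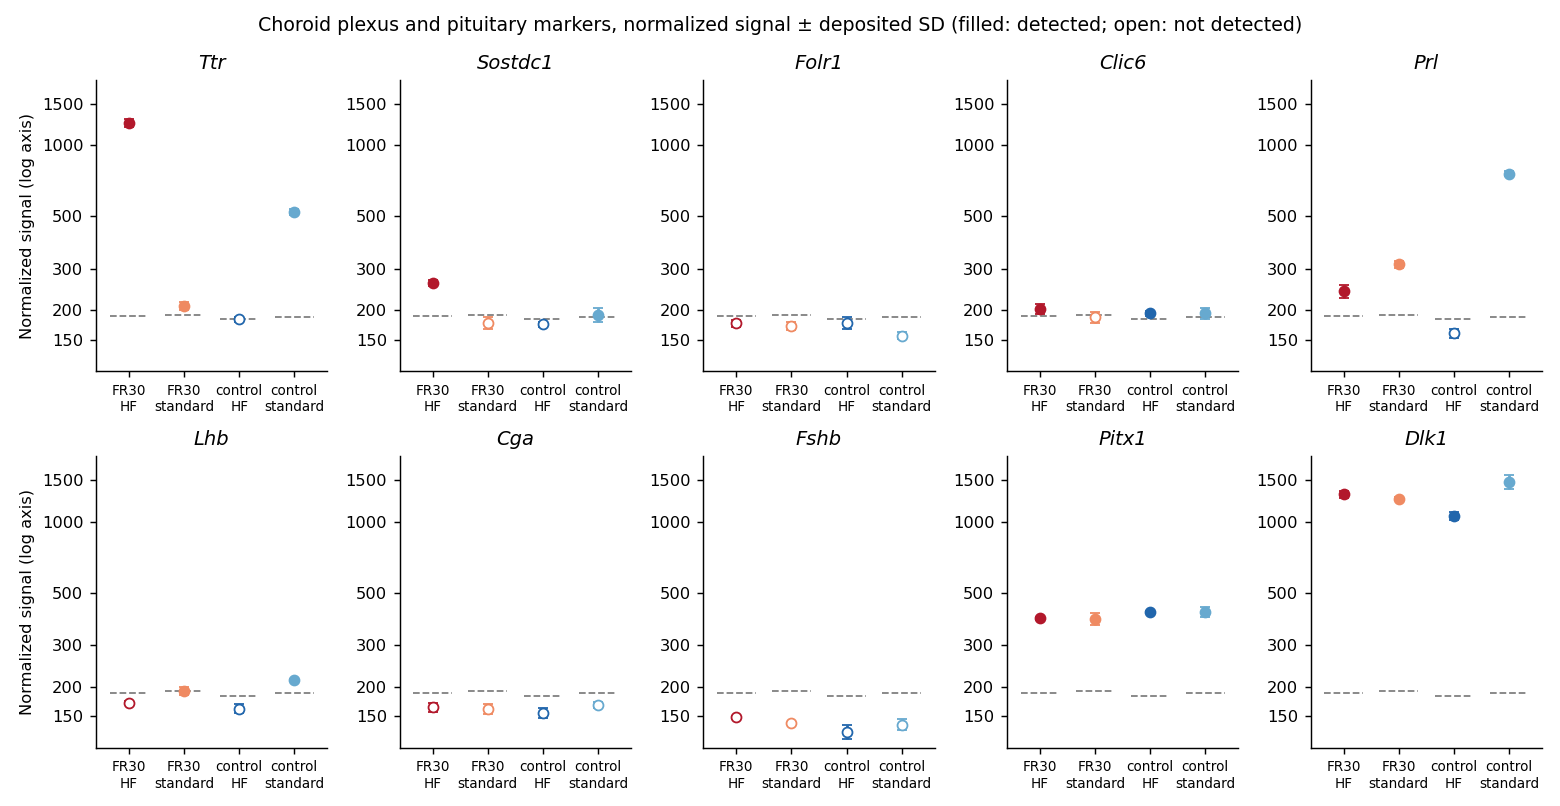
Normalized signal (log axis) of the 10 marker genes in the 4 samples, with the deposited SD as bars where they are wider than the point. Filled points are detected, open points are not, and the dashed line is the lowest detected signal of that sample. Ttr reaches 1251 in FR30 HF and Prl 759 in control standard, while Pitx1 lies between 387 and 415 in all samples.

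Prl had the widest range of the pituitary members. Its signal was 240 ± 15.1 in FR30 HF, 313 ± 11.6 in FR30 standard, 159 ± 7.14 in control HF and 759 ± 17.7 in control standard. All 4 signals were more than 2 SD apart on each side, with the highest 4.76 times the lowest. Control standard stood highest, at percentile 80.4 of its sample, and control HF was not detected, at percentile 36.9.

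Lhb, the beta subunit of luteinizing hormone, stood in the same order as Prl. It had 171 ± 2.37 in FR30 HF, 192 ± 7.78 in FR30 standard, 161 ± 6.71 in control HF and 213 ± 2.59 in control standard. It was detected in the samples on standard diet and in neither sample on HF diet. FR30 standard was just inside detection, with a p of 0.00970. The lowest pair, FR30 HF and control HF, was not more than 2 SD apart.

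The common alpha subunit Cga and the follicle-stimulating hormone subunit Fshb were below detection in all samples. Cga lay between 155 and 167, highest in control standard and lowest in control HF, and its neighbouring signals were not more than 2 SD apart. Fshb lay between 128 and 148. These values give no order for a hormone that needs both subunits, and whether the probes respond to their transcripts was not tested.

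Pitx1, a homeobox factor of the early pituitary, was nearly level across the samples. It had 389 ± 5.24 in FR30 HF, 387 ± 21.4 in FR30 standard, 415 ± 2.41 in control HF and 414 ± 21.1 in control standard, so its highest signal was 1.07 times its lowest. Dlk1, an imprinted membrane protein of the Notch ligand kind that is found in pituitary cells and in hypothalamic neurons too, was detected in all samples. It had 1310 ± 46.4 in FR30 HF, 1253 ± 16.7 in FR30 standard, 1059 ± 41.3 in control HF and 1477 ± 103 in control standard. Only its lowest signal, control HF, was more than 2 SD from its neighbour. Of all genes detected in both samples of a pair, the signals were that far apart for 6.27% (HF diet, FR30 offspring), 11% (HF diet, control offspring), 12.4% (FR30, HF diet) and 11.7% (FR30, standard diet). No neighbouring signals in the order of Pitx1 were more than 2 SD apart, so its highest sample is not told apart from the next. Its signals in FR30 HF and control HF, which are not neighbours, were more than 2 SD apart. Dlk1 had its lowest signal in control HF and its highest in control standard, as Prl did. That highest Dlk1 signal was not more than 2 SD from FR30 HF.

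Control HF had the lowest signal for 7 of the 10 members, namely Ttr, Sostdc1, Prl, Lhb, Cga, Fshb and Dlk1. Of 10959 genes detected in any sample, 22.9% had their lowest value in control HF. The highest signal belonged to FR30 HF for 4 members and to control standard for another 4. Of the 10959 genes, 27.6% were highest in FR30 HF and 23.4% in control standard. The undetected Fshb counts among the members highest in FR30 HF, and the undetected Cga among those highest in control standard. Of the 7, Cga and Fshb were never detected. The member counts come from the authors' normalized signals. The shares over all genes come from background-corrected and quantile-normalized values. By those values, control HF was lowest for 2 of 3 detected choroid plexus members and 3 of 4 detected pituitary members.

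Differences between samples below are log2 values from background-corrected and quantile-normalized signals. Where a gene was detected in 1 sample of a pair but not in the other, the difference is a bound ("at least"). The bound sets the brighter value against the higher of the dim probe and the dimmest detected probe of the dim sample. Differences of 1.5-fold, a log2 difference of 0.585, are called past the threshold.

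For HF against standard diet in FR30 offspring, Ttr and Sostdc1 were higher on HF diet and Prl was lower. Of 10195 genes detected in both samples, 0.324% were past 1.5-fold (0.196% higher and 0.128% lower), and of 365 genes detected in 1 of the 2, 3.01% had a bound that large. Ttr was higher by 3.91, with the second highest difference of all genes. Sostdc1 was at least 2.26-fold higher. Prl was lower, with a log2 difference of -0.75, at rank 8 from the lowest. The authors' own normalized signals, in which the background stays, gave a Prl ratio of 0.768 and a Sostdc1 ratio of 1.48, neither past 1.5-fold. Lhb had a bound of 1.08-fold lower, Dlk1 was higher by 0.07 and Pitx1 by 0.02.

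For HF against standard diet in control offspring, 3 members were past 1.5-fold, all lower on HF diet. Of 10394 genes detected in both samples, 0.587% were past 1.5-fold (0.144% higher and 0.443% lower), and of 488 genes detected in 1 of the 2, 1.43% had such a bound. The members past it were all of the second kind. Prl was at least 12.7-fold lower, Ttr at least 7.90-fold lower and Lhb at least 1.63-fold lower. The Lhb bound was not past 1.5-fold with a larger offset or without background correction. Dlk1 was lower, with a measured log2 difference of -0.51, at rank 83 from the lowest of all genes, and its signals were 1059 on HF diet against 1477 on standard diet. Clic6 differed by 0.01, Pitx1 had signals of 415 on HF diet against 414 on standard diet, and the Sostdc1 bound was 1.16-fold lower.

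Diet differences of Prl and Lhb had the same sign in both kinds of offspring, lower on HF diet, whereas those of Ttr had opposite signs. The diet log2 difference of Prl was -0.75 in FR30 offspring and -3.66 or lower in control offspring. For Ttr it was 3.91 in FR30 offspring and -2.98 or lower in control offspring. Both values in control offspring are bounds, because neither gene was detected in control HF. The 4 comparisons share samples in pairs, so their values for a gene are not independent.

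For FR30 against control offspring on HF diet, Ttr, Sostdc1 and Prl were higher in FR30 offspring and no member was past 1.5-fold lower. Of 10371 genes, 0.81% were past 1.5-fold (0.55% higher and 0.26% lower), and 3.09% of 518 genes had such a bound. All 3 are bounds, because control HF did not detect them. Ttr was at least 22.7-fold, Sostdc1 at least 2.61-fold and Prl at least 2.18-fold higher. In the authors' normalized signals Ttr alone stayed past 1.5-fold, with a ratio of 6.84, and the bounds of Prl and Sostdc1 were not past it. The log2 difference was 0.33 for Dlk1, 0.18 for Clic6 and -0.12 for Pitx1. Cga, Folr1, Fshb and Lhb were detected in neither sample.

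For FR30 against control offspring on standard diet, Ttr and Prl were lower in FR30 offspring and no member was past 1.5-fold higher. Of 10184 genes, 0.776% were past 1.5-fold (0.236% higher and 0.54% lower), and 0.993% of 403 genes had such a bound. The log2 difference was -2.38 for Ttr and -1.79 for Prl, at ranks 2 and 4 from the lowest. It was -0.46 for Lhb, at rank 141, -0.25 for Dlk1 and -0.14 for Pitx1. The Lhb signals, 192 in FR30 and 213 in control offspring, were more than 2 SD apart. Clic6 had a bound of 1.06-fold lower, and Sostdc1 had signals of 177 in FR30 and 191 in control offspring.

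**Figure D2:**
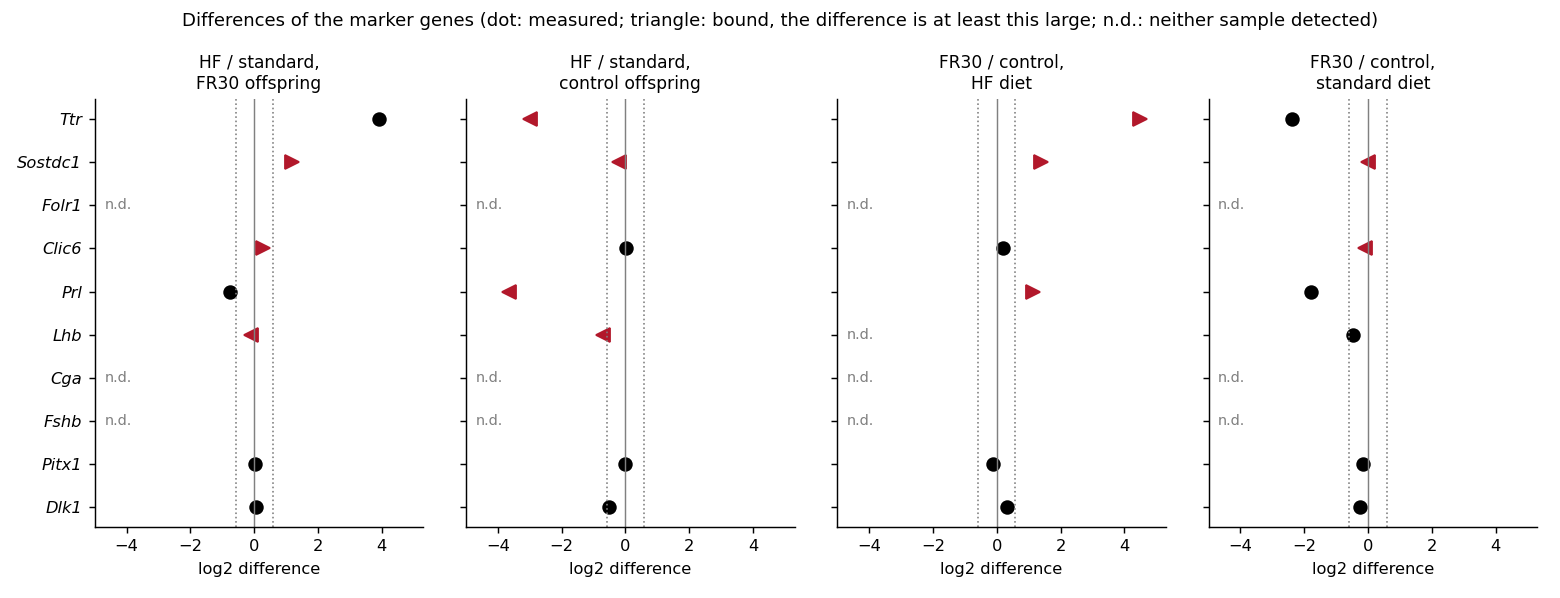
Log2 differences (horizontal axis) of the 10 marker genes in the 4 comparisons, with dotted lines at 1.5-fold. Dots are measured, triangles are bounds beyond which the difference lies, and n.d. marks genes detected in neither sample. For HF diet, Ttr lies at 3.91 in FR30 offspring and below 0 in control offspring, while Prl lies below 0 in both.

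A longer list of choroid plexus genes showed how far other markers shared the pattern. Of 37 further genes, 30 had a probe and 18 were detected in at least 1 sample. F5, coagulation factor V, is a known marker of choroid plexus epithelium and was the member of this list past 1.5-fold, at least 1.62-fold higher in FR30 HF than in control HF. Its signal was 213 ± 4.45 in FR30 HF, 164 ± 9.44 in FR30 standard, 160 ± 3.85 in control HF and 181 ± 1.83 in control standard. It was detected in FR30 HF alone. Its 4 samples stood in the same order as those of Ttr and Sostdc1, but below FR30 HF this order rests on undetected signals. The F5 signals of FR30 standard and control standard were not more than 2 SD apart. In the authors' normalized signals, F5 in FR30 HF was 1.33 times that in control HF, not past 1.5-fold. No gene of this list was past 1.5-fold in the other 3 comparisons.

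FR30 HF had the highest value for 10 of these 18 detected genes, where 27.6% of all genes did. Between HF and standard diet in FR30 offspring, the 15 genes of the list detected in both samples had a median difference of 0.08. Of these, 13 were higher and 2 lower. Over all genes the median was -0.0024, with 48.6% higher. The hypothalamic list below had a median of 0.04 in this pair, with 13 of 19 genes higher. The 2 lower genes were Ezr (-0.19) and Perp (-0.15). Otx2, the homeobox factor that choroid plexus development needs, had 324 ± 7.55 in FR30 HF, 291 ± 11.1 in FR30 standard, 270 ± 11.8 in control HF and 267 ± 5.43 in control standard. Its signals in FR30 HF and FR30 standard were not more than 2 SD apart. Unlike Ttr, Otx2 was lowest in control standard. Kcnj13 was level, with 210, 211, 207 and 209 in the same sequence of samples. These 4 genes are named after their values were seen. Between FR30 and control offspring on HF diet the median was 0.11, with 11 genes higher and 5 lower. Over all genes it was 0.0041, with 51.3% higher. The median was -0.02 for HF diet in control offspring and -0.02 for FR30 on standard diet. Kl, Slc4a5, Prlr, Cldn1, Cldn2, Trpm3, Wdr86, Lmx1a, Abca4, Kcne2, Rdh5 and Car12 were below detection in every sample, among them the anti-ageing factor Kl and the bicarbonate transporter Slc4a5. Of the detected genes, Krt8 is on the longer pituitary list too. How much of the detected signals of this list came from choroid plexus cells was not tested.

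A longer pituitary list of 34 genes had 31 on the array, of which 14 were detected. None was past 1.5-fold in any of the 4 comparisons. Their medians were 0.02 for HF diet in FR30 offspring, 0.02 for HF diet in control offspring, -0.03 for FR30 on HF diet and -0.07 for FR30 on standard diet. The lineage factors Pou1f1, Tbx19, Nr5a1, Lhx3, Lhx4, Hesx1, Neurod4 and Pax7 were below detection in all samples, as were the receptors Ghrhr, Gnrhr, Trhr, Crhr1 and Mtnr1a and the genes Rbp4, Nr4a1 and Oacyl. Several of the detected genes, such as the granule proteins Chga, Chgb and Scg2, are also made by hypothalamic neurons.

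Tshb was bright in every sample and did not follow Prl. It is named after its values were seen. Its signal was 5329 ± 176 in FR30 HF, 4429 ± 55.5 in FR30 standard, 3987 ± 70.3 in control HF and 3456 ± 124 in control standard. Control standard, where Prl was highest, had the lowest Tshb signal. The log2 difference for HF diet was 0.25 in FR30 offspring and 0.20 in control offspring. For FR30 it was 0.39 with HF feeding and 0.33 with standard feeding. All lay below 1.5-fold. Each of these 4 pairs of signals was more than 2 SD apart.

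**Figure D3:**
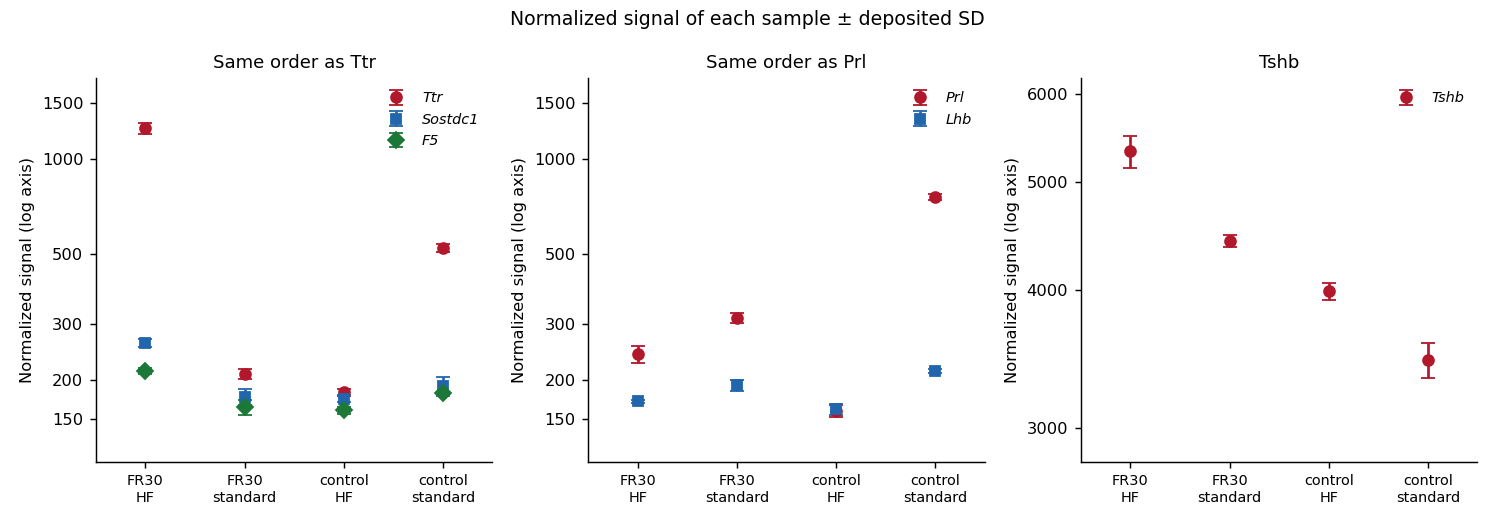
Normalized signal (log axes, which differ between panels) ± deposited SD in the 4 samples for Ttr, Sostdc1 and F5, for Prl and Lhb, and for Tshb. Signals of different probes are not on a common scale, so only the order of samples within a gene can be read. Ttr, Sostdc1 and F5 are highest in FR30 HF, Prl and Lhb in control standard, and Tshb is lowest in control standard.

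Other genes were searched for the same order of the 4 samples. Of 10448 genes detected in FR30 HF, 366 stood in the order of Ttr, and 15 of these had a range of 1.5-fold or more. These 15 are 5.14% of the 292 genes with such a range. Among the 5 with the widest log2 range were the mitochondrial ribosome gene Mrps10 (1.47), F5 (1.25), Rhbdf1 (0.92) and the lubricin gene Prg4 (0.91). Mrps10 was not detected in control HF, where its signal was 147. Its other signals, 210 in FR30 HF, 204 in FR30 standard and 204 in control standard, were not more than 2 SD apart. Only its lowest sample is thus told apart, and the rest of the Ttr order is not. Of 10463 genes detected in control standard, 396 (3.78%) stood in the order of Prl. Such a range was held by 20 of these, which is 6.76% of the 296 genes with it. The widest were LOC364773 (1.09), the integrin Itga1 (0.97), the neuromedin B receptor Nmbr (0.93), RGD1564247 (0.91) and the endocytosis gene Pacsin1 (0.91). No marker of the longer pituitary list was among the 5 in the order of Prl.

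Most markers of meninges and connective tissue were lowest in the control HF sample. Of 17 genes on the array 16 were detected, all in every sample. Of these, 12 had their lowest value in control HF, where 22.9% of all genes did. The summed signal of the 17 genes was 18010.5 in FR30 HF, 18538 in FR30 standard, 13664 in control HF and 17691 in control standard. The median difference between HF and standard diet was -0.03 in FR30 offspring and -0.42 in control offspring, with 14 genes lower in the control offspring. Over all genes these medians were -0.0024 and 0.0114, with 4763 of 10394 genes lower in control offspring. Slc47a1 (-0.75) and the retinoic acid enzyme Aldh1a2 (-0.63) were past 1.5-fold in control offspring. Between FR30 and control offspring on HF diet the median was 0.35, with 13 of 16 higher, led by Slc22a2 (1.17), Slc47a1 (0.98), Cyp1b1 (0.80) and Aldh1a2 (0.78). Over all genes that median was 0.0041, with 51.3% higher. In the comparisons without control HF, Slc22a2 was past 1.5-fold higher on HF diet in FR30 offspring (0.70), and Slc47a1 was past it for FR30 on standard diet (0.62). None of the differences named here was past 1.5-fold in the authors' normalized signals. There, Slc22a2 had 252 in FR30 HF and 186 in control HF, and Aldh1a2 had 426 and 303. The matrix proteoglycan gene Ogn had signals of 1663 ± 52.0 in FR30 HF, 1613 ± 53.6 in FR30 standard, 1134 ± 28.9 in control HF and 1610 ± 27.6 in control standard. The part of meningeal tissue in the Ttr and Prl values was not tested.

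Ependyma, the ciliated lining of the ventricle to which the choroid plexus is attached, did not move with Ttr. Of its 14 genes on the array, 12 were detected, all in every sample. Their medians were 0.02 for HF diet in FR30 offspring, 0.09 for HF diet in control offspring, -0.10 for FR30 on HF diet and -0.06 for FR30 on standard diet. None was past 1.5-fold. Of 5 blood genes on the array, 3 were detected in at least 1 sample. Hbb, a beta globin, was past 1.5-fold higher on HF diet, by 0.86 in FR30 and 0.89 in control offspring. The globin chaperone Ahsp was at least 1.65-fold higher on HF diet in FR30 offspring. Its authors' normalized signals there, 227 on HF and 191 on standard diet, were not 1.5-fold apart. The alpha globin gene Hba-a2, named after its values were seen, was not past 1.5-fold, at 0.51 in FR30 and 0.55 in control offspring. Of 23 hypothalamic genes, all on the array, 21 were detected, and none was past 1.5-fold in any comparison. The medians of the hypothalamic genes for HF diet were 0.04 in FR30 offspring and 0.02 in control offspring. For FR30 they were -0.10 with HF feeding and -0.14 with standard feeding. Of 6 detected tanycyte genes, which mark the lining of the lower ventricle, none was past 1.5-fold.

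**Figure D4:**
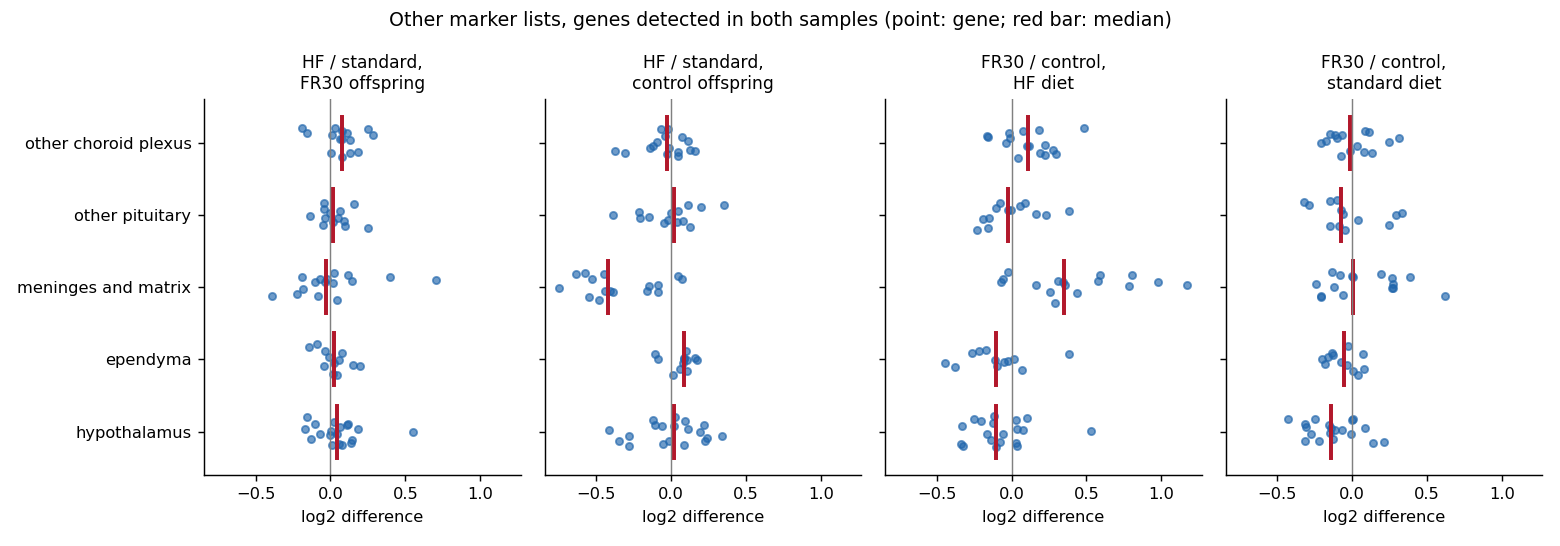
Log2 differences (horizontal axis) of single genes of 5 marker lists in the 4 comparisons, for genes detected in both samples, with the median as a red bar. Meningeal and matrix genes have medians of -0.42 for HF diet in control offspring and 0.35 for FR30 on HF diet, and the other lists have medians between -0.14 and 0.11.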

How the data were processed

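The labels gave each sample its group. Trizol was used for RNA extraction and biotin for labelling, per the labels' protocols. Per the submitters' processing notes, GenomeStudio made the deposited intensity tables. The authors deposited non-normalized and normalized intensities, both linear, with a detection p-value per probe and, in the normalized table, an SD. The sources used here do not give the normalization method, array version or genome build. A further value table was identical to the normalized intensities (largest difference 0).

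The non-normalized intensities were turned into log2 values by neqc of limma 3.58.1 (R 4.3.3), with an offset of 16 and quantile normalization over the 4 samples. Symbols were matched to RefSeq: 10291 probes held a current symbol, 4961 an older one, 7137 were kept as the file gives them and 134 had none. Each gene used its brightest probe, which gave 21467 genes. Members and lists were chosen with earlier results of these data known. Named genes are the members, up to 4 genes past 1.5-fold of each list and comparison, all genes with such a bound, the never detected genes of the choroid plexus and pituitary lists and the 5 widest genes in the order of Ttr or Prl; further ones are marked as chosen later. Some genes that this rule names are not reported here. With 1 sample per group, no p-value was computed between groups, and the number of samples limits the precision. The 1.5-fold call and the bound, but not the other steps, were tested on simulated data. Alternatives were the authors' normalized signals, an offset of 50, median centring, no background correction, a detection p under 0.05 and, for all genes, a 2-fold threshold. Figures used matplotlib 3.10.9 in Python 3.11.15.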

Additional observations from a re-analysis of the deposited data

Results flagged for a closer look

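Ttr is singled out because its diet difference ran in opposite directions in the 2 kinds of offspring, past 1.5-fold in each. The diet log2 difference was 3.91 in FR30 offspring and -2.98 or lower in control offspring, a gap of at least 6.89, which was not tested. The value in control offspring and the gap are bounds, because Ttr was not detected in control HF, with a detection p of 0.0109. The gap was at least 4.10 with the authors' normalized signals and at least 4.34 without background correction. Sostdc1, the other choroid plexus marker with the same order of samples, was detected in neither FR30 standard nor control HF, so both of its diet differences are bounds. Its bound in control offspring was not past 1.5-fold.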

How the results depend on the processing

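No paired analysis was possible because each group has 1 sample, and no sample could be left out for the same reason. The number of members past 1.5-fold was 3 for HF diet in FR30 offspring and 3 for FR30 on HF diet. With the authors' normalized signals it was 1 and 1, and without background correction 1 and 1, with Ttr left each time. Both settings keep the background in the signal, which draws ratios of dim probes towards equality. Over all genes, a 2-fold threshold left 12 genes for HF diet in FR30 offspring, 7 in control offspring, 17 for FR30 on HF diet and 8 on standard diet, against 33, 61, 84 and 79 at 1.5-fold. The authors' normalized signals gave 19, 16, 26 and 28 in the same order. Of 135 member differences recomputed under 5 settings, 39 moved by more than the deposited SD and none past 1.5-fold changed sign. The 27 with a detection p under 0.05 could not move, because that setting leaves the signals unchanged. With the authors' normalized signals 14 moved and 13 did not, and the counts were the same without background correction. An offset of 50 moved 11 and left 16. Ttr stayed past 1.5-fold in the 4 comparisons under each setting. Averaging probes could not change a member, since each has 1 probe. A detection p under 0.05 put 28 of 40 member values inside detection, against 21. Detection in the non-normalized table, an alternative chosen after seeing the data, also gave 21.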
